A study of Mus musculus with 23 samples.

Results

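E-cadherin and the catenins that bind its cytoplasmic tail were followed through RNA-seq libraries of sorted mouse spleen dendritic cells (DCs). The 5 genes were chosen by name and found by symbol: Cdh1, Ctnnb1, Jup, Ctnna1 and Ctnnd1, 5 of 47729 gene identifiers in the table of estimated read counts. All libraries came from spleens of wild type Balb/C mice, either untreated or treated with TLI, an abbreviation that the sample labels do not expand, and each library was made from cells of pooled mice. Cells were sorted into 4 subsets, DC1a (CD8hi CD172-), DC1b (CD8Int CD172+), DC2 (CD8lo CD172hi) and DC3 (CD8- CD172lo). Each subset had 2 untreated libraries, from pools 1 and 2 of batch 1. DC1a, DC1b and DC3 each had 4 TLI libraries and DC2 had 3, from pools 1 and 2 of batch 1 and pools 3 and 4 of batch 2. No DC2 library of TLI pool 2 was among the 23 samples. The age and number of the mice are not given in the sources used here.

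E-cadherin is a transmembrane protein that binds E-cadherin on a neighbouring cell and holds epithelial cells together at adherens junctions. Inside the cell its tail carries p120-catenin near the membrane and beta-catenin or plakoglobin further along, and alpha-catenin joins this complex to actin. Beta-catenin also enters the nucleus, where it works with TCF and LEF factors in Wnt signalling. E-cadherin is best known from epithelium and from the Langerhans cells of the skin, and the alphaE beta7 integrin (CD103) of lymphocytes and DCs binds it.

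Levels are given in CPM, the count of a gene as its share of a library of standard size, with libraries scaled by the trimmed mean of M values (TMM). The 23 libraries held 19256447 to 36997890 counts, and 3 counts, taken here as the floor below which a level cannot be told from 0, corresponded to 0.0861 to 0.147 CPM. The labels were checked against marker lists. The summed level of 5 general DC genes was at least 8608 CPM in each library. In untreated DC1b its median was 24512 CPM, mostly from Cd74 (mean 19779 CPM) and H2-Ab1 (mean 4530 CPM). All 5 genes had a lower mean there than in untreated DC1a. Zbtb46 was 5.09 and 9.92 CPM in untreated DC1b and 29.4 and 36.1 CPM in untreated DC1a. Itgax was 65.5 and 83.4 CPM in untreated DC1b and 149 and 171 CPM in untreated DC1a. The summed level of 9 DC1 genes in untreated cells was 2998 to 3295 CPM in DC1a, 1665 to 1830 in DC1b, 253 to 289 in DC2 and 2123 to 2204 in DC3. In untreated DC1b 913 and 779 CPM of this sum was Irf8. Batf3 was 43.0 and 37.2 CPM there, below the 158 and 125 CPM of untreated DC2. Xcr1 (94.6 and 61.7 CPM), Clec9a (213 and 186 CPM) and Cd8a (131.5 and 347 CPM) lay above untreated DC2 and below untreated DC1a. Cd8a stood at 0.363 CPM in 1 TLI DC1b library although that gate was CD8Int. Sirpa, the CD172 gene, was 34.0, 8.78 and 281.5 CPM in TLI DC2 of pools 1, 3 and 4, the CD172hi gate, with the first and second of these below the 162 and 145 CPM of TLI DC1b pools 1 and 2, and it was 5.51 and 7.26 CPM in TLI DC1b pools 3 and 4. The 9 erythroid genes summed to 19081 to 138582 CPM in the TLI libraries of batch 1, 195 to 7918 CPM in those of batch 2 and 129 to 2200 CPM in the untreated ones. In bulk libraries of sorted cells, fewer cells of a type and less RNA per cell cannot be told apart.

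Cdh1, the gene of E-cadherin itself (ENSMUSG00000000303), lies on chromosome 8 from 106603351 to 106670246 of GRCm38, on the plus strand. Among untreated cells it stood well above the floor in DC1b and was nearly absent in the other 3 subsets. The DC1b libraries of pools 1 and 2 held 889 and 873 counts, which are 35.4 and 31.1 CPM. Both untreated DC1a libraries held 0 counts. The DC2 libraries held 2 counts each, 0.0764 and 0.0934 CPM, and the DC3 libraries held 5 and 3 counts, 0.196 and 0.107 CPM. The DC1b libraries therefore lay far from all 6 others, and each DC2 library was at or under the floor. Mean Cdh1 in untreated DC1b was 33.2 CPM ± 3.09 (SD, n = 2), and 91.5% of all identifiers had a lower mean level in those cells. Most of the 47729 identifiers were too low to test, with 19597 past the filter on low counts, and 4047 identifiers had a higher mean than Cdh1.

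In TLI mice the DC1b level was near the floor. The TLI DC1b libraries of pools 1 to 4 held 17, 17, 7 and 0 counts, or 0.819, 0.640, 0.210 and 0 CPM. The TLI DC2 libraries held 3, 0 and 0 counts, and all 4 TLI DC3 libraries held 0. Of the TLI DC1a libraries, those of pools 1, 3 and 4 held 0 counts and that of pool 2 held 183, which is 7.22 CPM. The pool 2 library was the only one outside untreated DC1b with more than 17 Cdh1 counts.

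**Figure D1:**
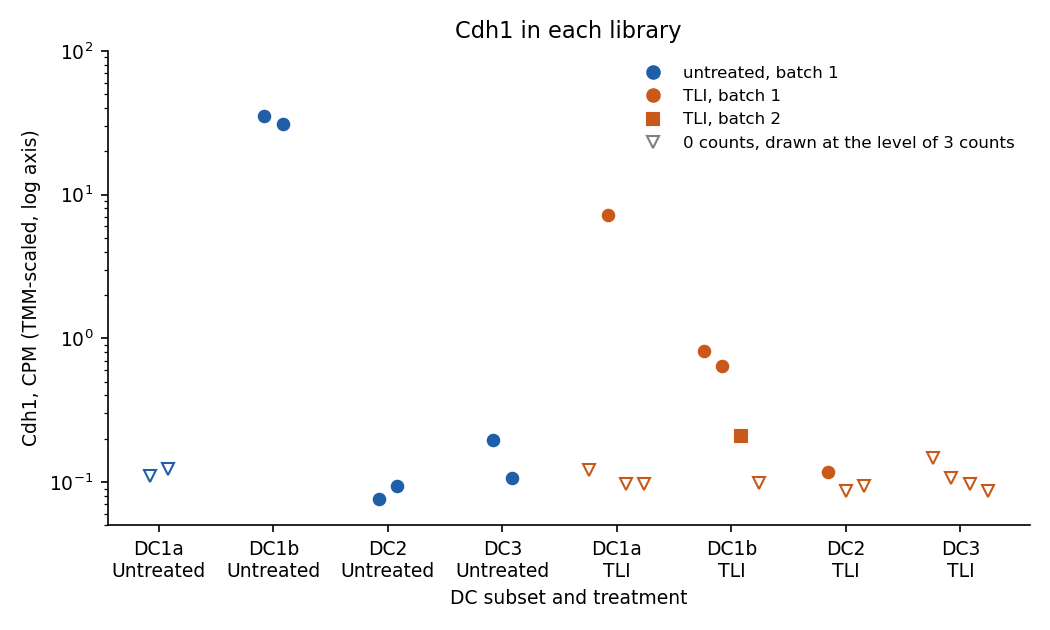
Cdh1 level (CPM, log axis) in each of the 23 libraries, by DC subset and treatment, with 1 point per library, circles for batch 1 and squares for batch 2. Open triangles are libraries with 0 counts, drawn at the level of 3 counts. Both untreated DC1b libraries stood at 31.1 and 35.4 CPM, 1 TLI DC1a library stood at 7.22 CPM and each other library was below 1 CPM.

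By group mean the order of Cdh1 was untreated DC1b (33.2 CPM), TLI DC1a (1.81), TLI DC1b (0.417), untreated DC3 (0.151), untreated DC2 (0.0849), TLI DC2 (0.0394), then TLI DC3 and untreated DC1a, both at 0. The first place did not overlap with the second. The second place rested on 1 library, and neighbours from the second place to the fourth overlapped in range. Untreated DC3 and DC2 did not overlap, at 8 and 4 summed counts. Untreated DC1a and TLI DC3 were at 0. Mean Cdh1 in untreated DC1b was 270-fold above the highest single-library floor of untreated DC1a and 226-fold above that of TLI DC3. The floor is a set number of reads and no measured limit of detection. From summed counts it was 394-fold (95% counting interval 154 to 1448) above untreated DC2, 222-fold (112 to 515) above untreated DC3 and 89.7-fold (65.8 to 125) above TLI DC1b. These intervals cover the counting of reads only. They leave out the sampling and amplification of RNA from the sorted cells and the spread between mice.

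Each comparison between 2 groups was tested with edgeR's quasi-likelihood test over 19597 genes in 1 fit of the 23 libraries, with the Benjamini-Hochberg adjustment. The SE given with an edgeR log2 fold change is its absolute value over the square root of the F statistic of the test. For Cdh1 in untreated DC1b against DC1a the fitted log2 fold change was 12.84 (SE 3.59), and it missed the threshold with an edgeR adjusted p of 0.153. Such a fitted value against a group at 0 and its SE depend on the prior count, and the value is no bound. For untreated DC2 against DC1b it was -8.54 (SE 2.99, edgeR adjusted p = 0.400), and for DC3 against DC1b -7.74 (SE 2.88, edgeR adjusted p = 0.482). The Cdh1 dispersion in this fit was shared with the TLI DC1a library of 183 counts. Without that library the DC1b to DC1a contrast passed with an edgeR adjusted p of 0.0445, where 0.929% of genes passed. In a fit of the 8 untreated libraries alone it passed with an edgeR adjusted p of 0.0250, where 1.11% of genes passed.

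In the fit of all libraries none of the 5 genes passed in any of the 6 untreated subset comparisons, and 5 of 30 gene and comparison pairs had an unadjusted p under 0.05. Over all genes 7.47% to 13.1% had such a p in these comparisons. The share of all genes that passed was 0.837% in DC1b against DC1a, 1.91% in DC2 against DC1a, 0.398% in DC2 against DC1b, 0.184% in DC3 against DC1a, 0.393% in DC3 against DC1b and 0.837% in DC3 against DC2. DESeq2 called 2 of the 30, both of them Cdh1. One was DC1b against DC1a (DESeq2 adjusted p = 0.00225, 6.46% of genes called) and the other was DC2 against DC1b (DESeq2 adjusted p = 0.0371, 5.52% of genes called).

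For TLI against untreated DC1b the fitted Cdh1 log2 fold change was -4.33 (SE 3.69, edgeR adjusted p = 0.682), although the 4 TLI libraries all lay below both untreated ones. Within batch 1, where both treatments had 2 pools, it was -5.47 (SE 2.17, edgeR adjusted p = 0.422). For TLI against untreated DC1a it was 8.81 (SE 3.10, edgeR adjusted p = 0.419), and without the pool 2 library all of these DC1a libraries stood at 0. None of the 5 genes passed in the 4 comparisons of TLI with untreated cells, where 0.0102% of genes passed in DC1a, 0.413% in DC1b, 0.0612% in DC2 and 0.0255% in DC3. Of those 20 pairs 1 had an unadjusted p under 0.05, against 9.01% to 12.4% of all genes, and DESeq2 called 0.

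The difference between treatments in a subset contrast was tested as an interaction. For Cdh1 in DC1b against DC1a this was -13.14 on the log2 scale (SE 4.33, edgeR adjusted p = 0.542), again with a group at 0. It rested on the TLI DC1a library of 183 counts, since without it all DC1a libraries stood at 0 and no finite difference could be fitted. None of the 5 genes passed in any of the 6 interactions, and 3 of 30 pairs, all Cdh1, had an unadjusted p under 0.05. The share of genes that passed was 0.0357% for DC1b against DC1a, 0.0255% for DC2 against DC1a, 0.122% for DC2 against DC1b, 0% for DC3 against DC1a, 0.0204% for DC3 against DC1b and 0.0357% for DC3 against DC2. An unadjusted edgeR p under 0.05 was reached by 1468 of 19597 genes for DC1b against DC1a and 1420 for DC2 against DC1a. For DC3 against DC1a 815 genes had an unadjusted p under 0.05 in edgeR and DESeq2 called 308 genes. DESeq2 called 1 pair, Cdh1 in DC1b against DC1a (DESeq2 adjusted p = 0.0182, 2.74% of genes called).

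Plasmacytoid DC markers moved with Cdh1. Plasmacytoid DCs are the interferon-producing DCs, marked in the mouse by Siglech and by Tcf4, the factor that sets their identity. All 11 genes of this list were higher in both untreated DC1b libraries than in each of the other 21 libraries, as was Cdh1, against 2.7% of all genes tested. The list was chosen with earlier results of these data known, so this count is no independent test. Their summed level was 5629 and 8027 CPM in untreated DC1b, 126 to 216 CPM in TLI DC1b, 58.0 to 169 CPM in the 6 DC1a libraries, 78.0 to 160 CPM in DC2 and 117 to 313 CPM in DC3. Siglech stood at 981 and 1653 CPM in untreated DC1b, at 0.297 to 33.4 CPM in TLI DC1b and at 0 in all 4 TLI DC1a libraries. The TLI DC1a library with 183 Cdh1 counts had a summed level of 97.0 CPM, in the range of its group. In the other marker lists, only Cd4, Ly6c2 and Cdh5 were also higher in both untreated DC1b libraries than in each of the other 21 libraries. The part of the plasmacytoid DC markers and of these genes in the Cdh1 result was not tested. The study names B220, which mouse plasmacytoid DCs carry, among the lineage markers removed in its flow cytometry gate.

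**Figure D2:**
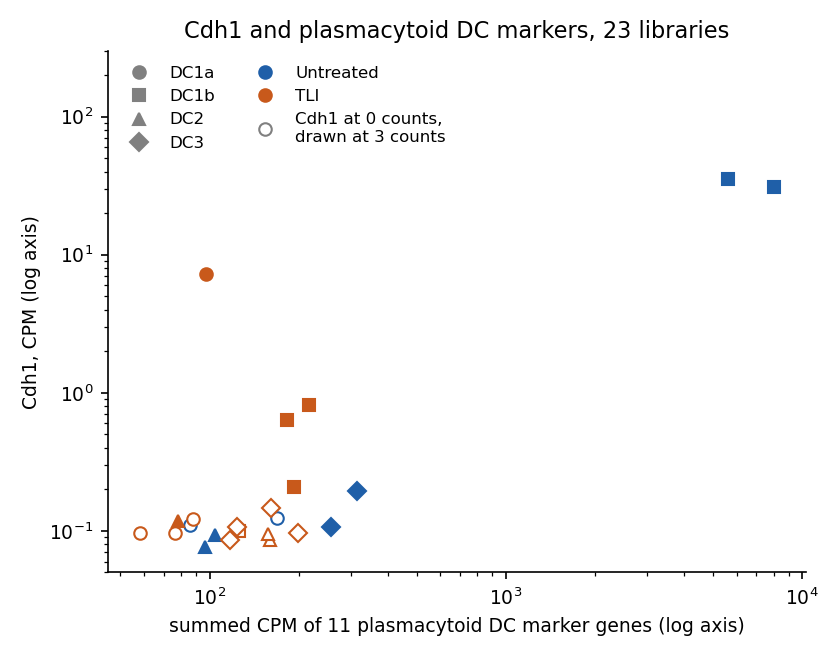
Cdh1 level (CPM, log axis) against the summed level of 11 plasmacytoid DC marker genes (CPM, log axis) in 23 libraries, with the shape showing the subset and the colour the treatment. Open symbols are libraries with 0 Cdh1 counts, drawn at 3 counts. The 2 untreated DC1b libraries lay apart at 5629 and 8027 CPM of markers, and the TLI DC1a library at 7.22 CPM of Cdh1 had 97.0 CPM of markers.

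The epithelial markers were mixed. Krt8 and Krt18, the simple-epithelium keratins, were at 0 in both untreated DC1b libraries, and Cldn4 reached at most 0.0797 CPM there. Epcam, the epithelial cell adhesion molecule, was 0 CPM in 1 untreated DC1b library and 16.04 CPM in the other, and it was 9.48 and 23.1 CPM in untreated DC2 and up to 16.4 CPM in TLI DC1b. Cd207, the langerin gene of Langerhans cells and of CD8+ DCs, was 158 and 161 CPM in untreated DC1b but 759 and 884 CPM in untreated DC1a, where Cdh1 was at 0. Markers of some other cells were higher in TLI DC1b than in untreated DC1b and those of others were not. The 8 neutrophil genes summed to 1444 to 23353 CPM against 1.03 to 17.1 CPM, and the 9 erythroid genes summed to 2176 to 69554 CPM against 154 to 214 CPM. The 5 NK cell genes summed to 18.6 to 166 CPM against 192 to 274 CPM, and the 7 monocyte and macrophage genes overlapped, at 1030 to 3138 CPM against 1883 to 3473 CPM. Their part in the TLI result for Cdh1 was not tested.

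Ctnnb1 encodes beta-catenin, which links cadherin tails to alpha-catenin and carries Wnt signals (ENSMUSG00000006932, chromosome 9, 120929216 to 120960507, plus strand). It was high in every library and varied little beside Cdh1. In untreated cells it was 76.3 and 113 CPM in DC1a, 113 and 132 CPM in DC1b, 97.5 and 97.7 CPM in DC2, and 159.9 and 160.2 CPM in DC3. Both DC3 libraries lay above the 6 others, and how many of all genes show this order was not counted. In TLI cells of pools 1 to 4 it was 58.1, 84.7, 159.6 and 162 CPM in DC1a, and 93.0, 91.5, 185 and 114 CPM in DC1b. TLI DC2 gave 121, 117 and 152 CPM and TLI DC3 gave 154, 93.1, 266 and 201 CPM. In DC1a, DC1b and DC3 the pools of batch 2 were all higher than those of batch 1, which was not counted over all genes either.

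By group mean Ctnnb1 ran from 178 CPM ± 73.1 (SD, n = 4) in TLI DC3 and 160 CPM ± 0.175 (SD, n = 2) in untreated DC3 down to 94.7 CPM ± 25.9 (SD, n = 2) in untreated DC1a. Untreated DC3 did not overlap with the third group, TLI DC2 at 130 CPM, and every other pair of neighbours overlapped. Such gaps were not counted over all genes. Of its 16 fitted differences the largest was untreated DC3 against DC1a, a log2 fold change of 0.76 (SE 0.35, edgeR adjusted p = 0.664). TLI DC3 against DC1a was 0.65 (SE 0.25, edgeR adjusted p = 0.358), with 0.86 in batch 1 and 0.66 in batch 2. Over all 16 comparisons the fitted log2 fold changes of Ctnnb1 lay between -0.45 and 0.76. Ulk4, on the opposite strand, shares 759 exon bases with Ctnnb1, but no library had more than 47 Ulk4 counts.

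Jup encodes plakoglobin, the relative of beta-catenin that also serves desmosomes (ENSMUSG00000001552, chromosome 11, 100368958 to 100397763, minus strand). Its level was low and uneven between pools of the same group. Untreated DC1a held 3.26 and 4.80 CPM and untreated DC1b 6.37 and 3.91 CPM. Untreated DC2 held 0.725 and 15.2 CPM, and untreated DC3 held 0.0782 and 5.81 CPM. In both of these subsets 1 pool was high and the other low, with 19 against 326 counts in DC2 and 2 against 163 counts in DC3. The TLI libraries of pools 1 to 4 held 5.502, 11.9, 4.54 and 4.11 CPM in DC1a and 14.2, 0, 2.72 and 1.62 CPM in DC1b. TLI DC2 held 11.3, 0.0574 and 2.23 CPM and TLI DC3 held 0.147, 3.62, 0.0648 and 0 CPM. Of the 23 libraries 6 were at or under 3 counts, and none of those 6 was a DC1a library.

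Group means of Jup ran from 7.97 CPM ± 10.2 (SD, n = 2) in untreated DC2 to 0.959 CPM ± 1.78 (SD, n = 4) in TLI DC3, and every pair of neighbours overlapped. The largest fitted difference was TLI DC3 against DC1a, at -4.06 on the log2 scale (SE 1.90, edgeR adjusted p = 0.466). It was -2.20 within batch 1 and -6.79 within batch 2. The SD was larger than the mean in 5 of the 8 groups.

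Ctnna1 encodes alphaE-catenin, which joins the cadherin complex to actin (ENSMUSG00000037815, chromosome 18, 35118859 to 35254779, plus strand). Its highest values were in DC3. In untreated cells it was 78.3 and 83.3 CPM in DC1a, 114 and 47.1 CPM in DC1b, 44.8 and 65.1 CPM in DC2, and 100.4 and 131 CPM in DC3. The DC1b pools differed by more than the subset means did. In TLI cells of pools 1 to 4 it was 66.2, 136, 81.9 and 124 CPM in DC1a and 47.3, 87.0, 104 and 101 CPM in DC1b. TLI DC2 gave 58.2, 123 and 121 CPM and TLI DC3 gave 123, 144, 277 and 169 CPM. All 4 TLI DC3 libraries lay above all 4 TLI DC1b libraries, and how many of all genes separate in this way was not counted.

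The group means of Ctnna1 ran from 178 CPM ± 68.5 (SD, n = 4) in TLI DC3 to 54.9 CPM ± 14.3 (SD, n = 2) in untreated DC2, and every pair of neighbours overlapped. TLI DC3 against DC1b gave a log2 fold change of 1.06 (SE 0.33, edgeR adjusted p = 0.175), with 0.98 in batch 1 and 1.14 in batch 2. TLI DC3 against DC2 gave 0.93 (SE 0.36, edgeR adjusted p = 0.276), with 1.16 and 0.85 within the batches. Untreated DC3 against DC2 gave 1.07 (SE 0.47, edgeR adjusted p = 0.401). Lrrtm2 lies on the opposite strand within Ctnna1 and shares 95 exon bases, with at most 380 counts in a library.

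Ctnnd1 encodes p120-catenin, which binds cadherins near the membrane and keeps them at the cell surface (ENSMUSG00000034101, chromosome 2, 84600071 to 84650765, minus strand). In untreated cells both DC1a and both DC3 libraries lay above those of DC1b and DC2 in Ctnnd1. This grouping was made after the values were seen, and how many of all genes separate in this way was not counted. The values were 12.6 and 9.69 CPM in DC1a, 13.9 and 15.6 CPM in DC3, 2.75 and 6.83 CPM in DC1b, and 3.09 and 3.88 CPM in DC2. The untreated DC1b libraries, where Cdh1 was highest, were thus among the lower ones for Ctnnd1. In TLI cells of pools 1 to 4 the DC1a values were 6.19, 1.46, 7.17 and 4.62 CPM and the DC1b values 10.02, 11.7, 1.08 and 3.03 CPM. TLI DC2 held 4.33, 0.230 and 0.534 CPM, and TLI DC3 held 11.97, 2.52, 8.88 and 7.11 CPM.

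No Ctnnd1 comparison passed. Untreated means were 14.8 CPM ± 1.19 in DC3, 11.1 CPM ± 2.04 in DC1a, 4.79 CPM ± 2.88 in DC1b and 3.48 CPM ± 0.554 in DC2 (SD, n = 2 each), and the lowest adjusted p of the 6 untreated comparisons was 0.529. TLI DC3 against DC2 gave a log2 fold change of 2.63 (SE 1.00, edgeR adjusted p = 0.259). Within batch 1 it was 0.75 and within batch 2 it was 4.35, so the pooled value rested mostly on pools 3 and 4. Gm28635, a gene model on the same strand, shares 4482 exon bases with Ctnnd1 and was at 0 in every library.

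Among TLI subsets as a whole none of the 5 genes passed in any of the 6 comparisons. An unadjusted p under 0.05 was found in 9 of 30 pairs, all of them comparisons of DC3 with another subset. Over all genes 10.4% to 17.7% had such a p in the 6 comparisons. The share of all genes that passed was 1.42% in DC1b against DC1a, 3.4% in DC2 against DC1a, 0.214% in DC2 against DC1b, 0.75% in DC3 against DC1a, 1.11% in DC3 against DC1b and 1.37% in DC3 against DC2. DESeq2 called 2 pairs, both catenins. They were Ctnna1 in DC3 against DC1b (DESeq2 adjusted p = 0.0295, 6.45% of genes called) and Ctnnd1 in DC3 against DC2 (DESeq2 adjusted p = 0.0235, 8.03% of genes called). For Cdh1, TLI DC3 against DC1b gave -7.00 (SE 2.24, edgeR adjusted p = 0.220) and TLI DC3 against DC1a gave -7.30 (SE 2.40, edgeR adjusted p = 0.285), with 0 counts in all 4 DC3 libraries. Both are fitted values against a group at 0, and the second rests on the pool 2 library of DC1a.

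**Figure D3:**
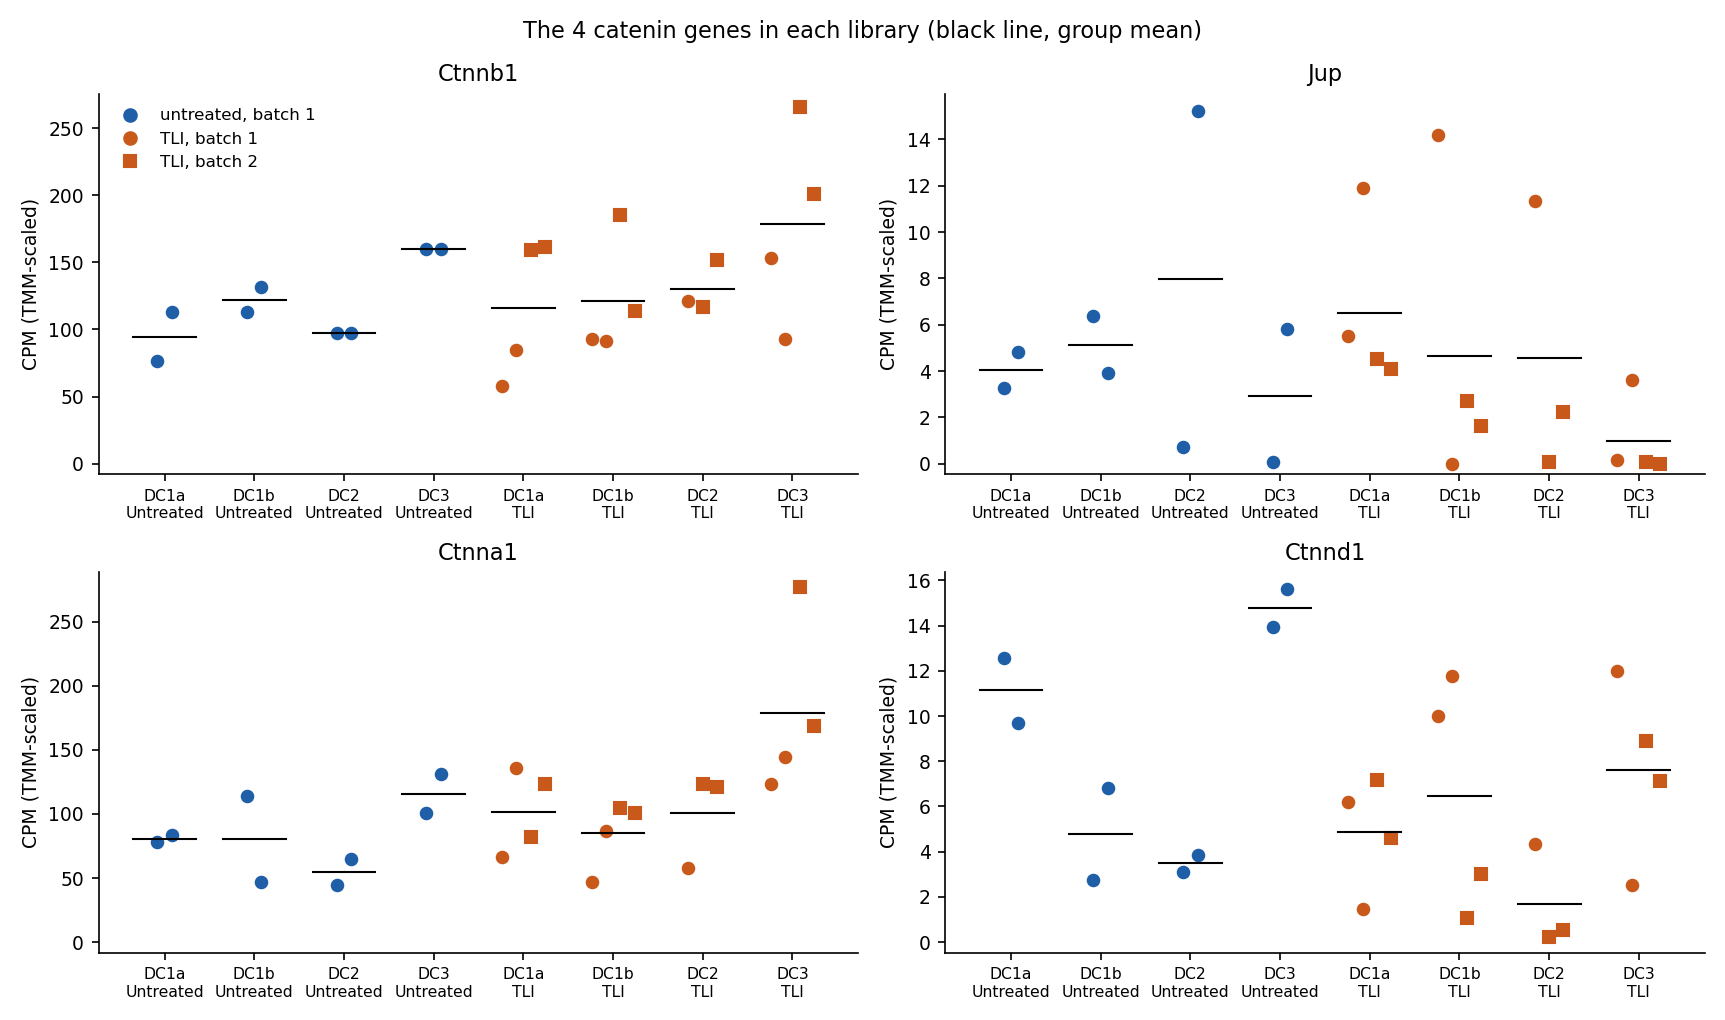
Level (CPM) of the 4 catenin genes in each of the 23 libraries, by subset and treatment, with 1 point per library, circles for batch 1, squares for batch 2 and a black line for the group mean. Ctnnb1 (58.1 to 266 CPM) and Ctnna1 (44.8 to 277 CPM) were present in all libraries, while Jup (0 to 15.2 CPM) and Ctnnd1 (0.230 to 15.6 CPM) were lower and more uneven between pools.

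**Figure D4:**
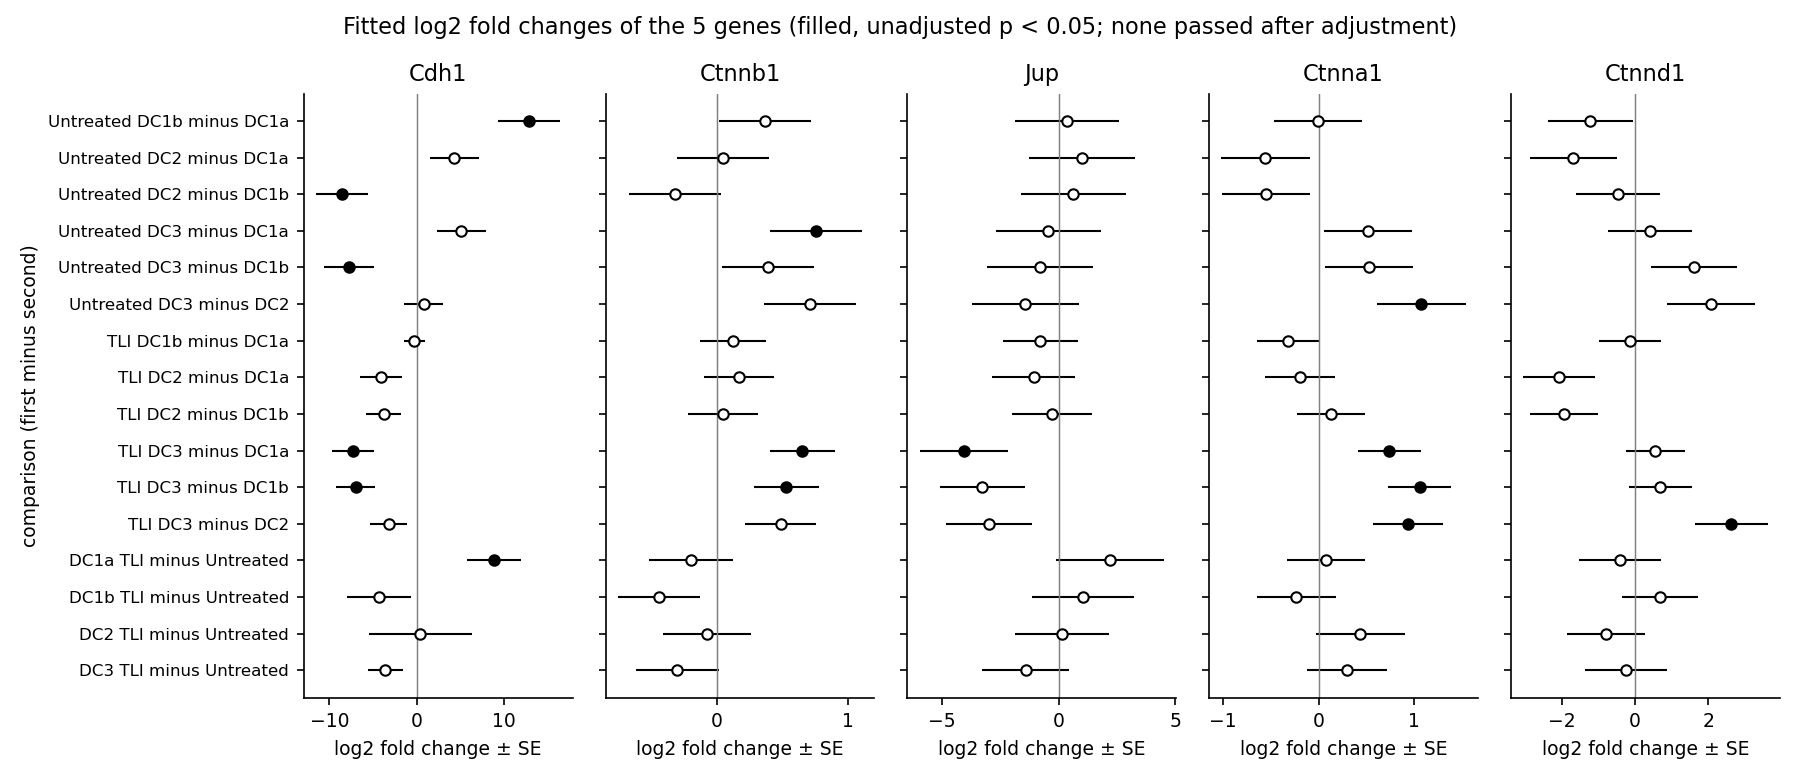
Fitted log2 fold changes of the 5 genes with 1 SE to each side, in the 6 untreated subset comparisons, the 6 TLI subset comparisons and the 4 comparisons of TLI with untreated cells, with filled points for an unadjusted p under 0.05. The SE is the absolute log2 fold change over the square root of the F statistic of its test. None of the 80 values passed after adjustment, and the x axes differ between genes, with Cdh1 between -8.54 and 12.84 and Ctnnb1 between -0.45 and 0.76.

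Levels of different genes can be compared only per length, so counts were divided by exon length and scaled to the same total in each library (TPM). The TPM of Ctnnb1 was 15.5 to 79.8 over the 23 libraries, with a median of 39.7. Ctnna1 had a median of 23.6 TPM, Ctnnd1 of 1.24 TPM, Jup of 0.816 TPM and Cdh1 of 0 TPM. Beta-catenin and alpha-catenin were thus the abundant pair in all 8 groups. The TPM ratio of Ctnna1 to Ctnnb1 had a median of 0.648 and a range of 0.289 to 1.298, and that of Jup to Ctnnb1 did not exceed 0.126 in any library. The ratio of Cdh1 to Ctnnb1 was 0.356 and 0.268 in untreated DC1b and 0.0969 in the TLI DC1a library of pool 2, and at most 0.00999 in the 20 others. In both untreated DC1b libraries Cdh1, at 17.6 and 14.0 TPM, exceeded Ctnnd1, at 0.854 and 1.93 TPM, and Jup, at 2.25 and 1.26 TPM.

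Genes that act on or with E-cadherin were read from 10 lists of 93 genes, of which 60 passed the filter on low counts. Over the 16 comparisons 15 of 960 gene and comparison pairs passed, 9 higher and 6 lower, against 0.833% of pairs over all genes. In untreated DC1b against DC1a 1 of 60 passed, 1.67% against 0.837% of all genes, and the median log2 fold change of the 60 was 0.64, or 0.55 with genes at 0 set to their bound, against 0.07 for all genes. In untreated DC2 against DC1b and DC3 against DC1b and in TLI against untreated DC1b none of the 60 passed by edgeR, with 8, 5 and 10 at an unadjusted p under 0.05 and 3, 3 and 5 called by DESeq2. Over all genes 9.21%, 8.43% and 12.4% had an unadjusted p under 0.05, and DESeq2 called 5.52%, 4.75% and 6.47%. The largest count was TLI DC2 against DC1a, with 6 of 60, or 10%, against 3.4% of all genes. Of the 15 calls 12 were lost in 4 to 19 of the 23 fits that left out 1 library each, and the 3 that were not are Zeb2 in TLI DC1b and TLI DC2 over DC1a and Iqgap1 in TLI DC2 over DC1a.

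The repressors of the Cdh1 gene are zinc-finger and helix-loop-helix factors that bind E-boxes in its promoter. Of the 7 listed, 4 passed the filter and 1, Zeb2, passed the test in any comparison. Zeb2 was 0.777 and 5.01 CPM in untreated DC1a, 205 and 139 CPM in untreated DC1b, 197 and 73.4 CPM in untreated DC2, and 15.96 and 19.2 CPM in untreated DC3. In TLI cells it was 0.970 to 7.38 CPM in DC1a, 42.3 to 258 CPM in DC1b, 165 to 377 CPM in DC2 and 7.57 to 30.6 CPM in DC3. The untreated DC1b libraries with the highest Cdh1 were therefore also high in Zeb2, at levels that overlapped with those of TLI DC1b, where Cdh1 was near the floor.

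Zeb2 rose in untreated DC1b over DC1a by a log2 fold change of 5.89 (SE 1.29, edgeR adjusted p = 0.0389, and 0.0899 with the mouse pool as a block). It also rose in TLI DC1b over DC1a, by 5.51 (SE 0.94, edgeR adjusted p = 0.00363), with 3.44 in batch 1 and 7.81 in batch 2. In DC2 over DC1a it rose by 5.55 in untreated cells (SE 1.27, edgeR adjusted p = 0.0304, and 0.0707 with the block) and by 6.31 in TLI cells (SE 0.98, edgeR adjusted p = 0.00106). In TLI DC3 it was lower than in DC2, at -3.70 (SE 0.86, edgeR adjusted p = 0.0430, and 0.105 with the block). For TLI against untreated DC1b Zeb2 gave -0.45 (SE 1.03, edgeR adjusted p = 0.920).

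The other repressors gave no call in edgeR, while DESeq2 called Zeb1 in 3 of 16 comparisons and Snai1 and Tcf3 in 0. It called Zeb2 in 9 of 16, and 6.35% of gene and comparison pairs over all genes. Zeb1, the closest relative of Zeb2, was present in all groups, at 30.7 to 52.9 CPM in untreated DC1b, 91.6 and 110 CPM in untreated DC3 and 13.0 to 34.0 CPM in TLI DC1b. Its TLI against untreated DC1b value was -1.38 (SE 0.42, edgeR adjusted p = 0.185). Tcf3, the E2A gene, lay between 1.59 and 14.5 CPM in all libraries. Snai1, Snai2, Twist1 and Twist2, the Snail and Twist factors of epithelial to mesenchymal transition, did not exceed 0.883, 1.15, 0.934 and 0.191 CPM.

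**Figure D5:**
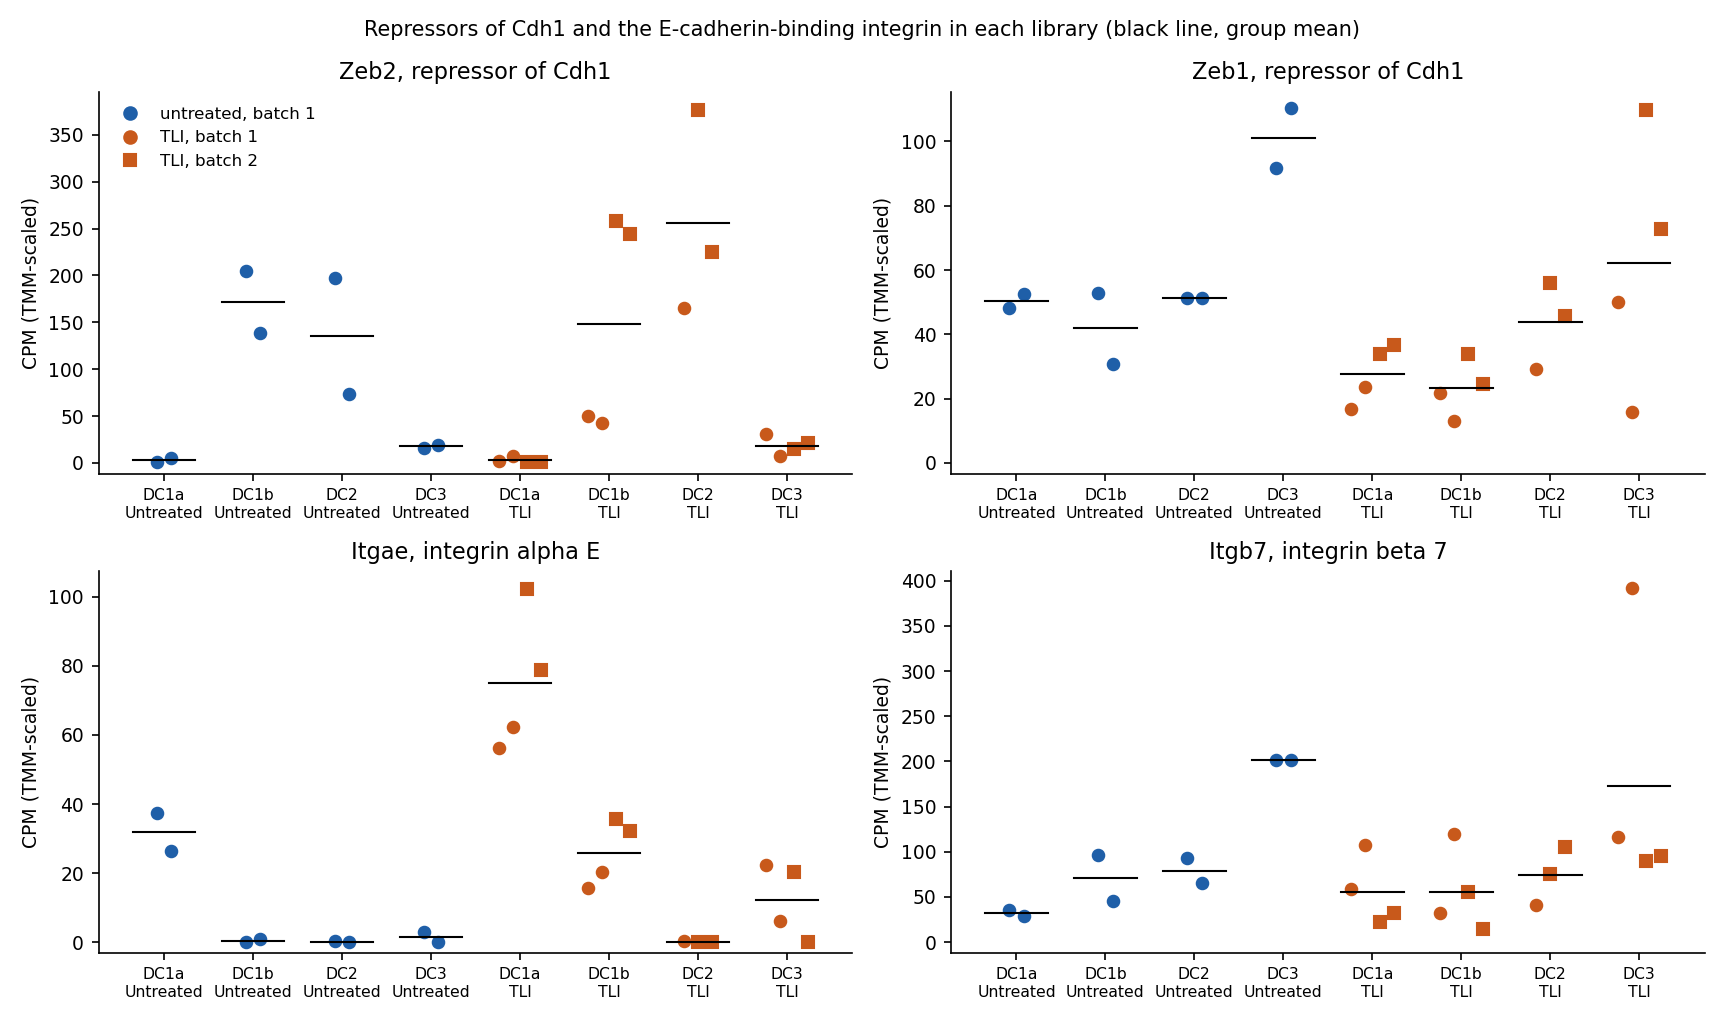
Level (CPM) of the repressor genes Zeb2 and Zeb1 and of Itgae and Itgb7, which encode the 2 chains of the integrin that binds E-cadherin, in each of the 23 libraries, with 1 point per library, circles for batch 1, squares for batch 2 and a black line for the group mean. Zeb2 was at most 7.38 CPM in DC1a and at least 42.3 CPM in DC1b and DC2, and Itgae was at least 26.4 CPM in DC1a and at most 0.960 CPM in untreated DC1b and DC2.

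The leukocyte receptors of E-cadherin are the integrin chains alphaE (Itgae, CD103) and beta7 (Itgb7) and the inhibitory lectin receptor Klrg1. Itgae was 37.5 and 26.4 CPM in untreated DC1a and 56.3 to 102 CPM in TLI DC1a. It was 0 and 0.960 CPM in untreated DC1b, 0.344 and 0 CPM in untreated DC2, and 2.97 and 0.142 CPM in untreated DC3. In TLI cells it was 15.6 to 35.6 CPM in DC1b, 0 to 0.394 CPM in DC2 and 0 to 22.3 CPM in DC3. Within each treatment the DC1a libraries, without Cdh1 apart from the TLI pool 2 library, were thus the highest in the RNA of this receptor chain.

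Itgae was lower in TLI DC2 than in TLI DC1a, at -9.32 on the log2 scale (SE 2.33, edgeR adjusted p = 0.0350, and 0.0608 with the block). Untreated DC1b against DC1a gave -6.03 (SE 2.46, edgeR adjusted p = 0.388), and TLI against untreated DC1b gave 5.95 (SE 2.43, edgeR adjusted p = 0.335). Itgb7 was found in every library, at 14.1 to 392 CPM, and gave no call in edgeR. DESeq2 called Itgae in 6 of 16 comparisons, these 3 among them, Itgb7 in 2 and Klrg1 in 0, against 6.35% of pairs over all genes. Klrg1 was at most 0.239 CPM in all untreated libraries and was above 0 in 5 TLI libraries, all of batch 1, without a call. It was 5.71, 18.4 and 42.1 CPM in pool 1 of DC1a, DC1b and DC3 and 3.63 and 15.8 CPM in pool 2 of DC1a and DC3. Klrg1 is also an NK cell gene, and the 5 NK cell markers summed to 190, 166 and 2858 CPM in the 3 libraries of pool 1 and to 130 and 582 CPM in the other two. They also summed to 211 CPM in TLI DC2 of pool 1 and to 260 CPM in an untreated DC3 library, both with Klrg1 at 0. Their part in the Klrg1 level was not tested.

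The remaining calls in the lists were few, and the genes are named after their values were seen. Among actin-linking proteins, Iqgap1, a scaffold of actin and cadherin complexes, was higher in DC2 than in DC1a in untreated cells, at 588 against 215 CPM on average (log2 fold change 1.45, SE 0.33, edgeR adjusted p = 0.0282), and in TLI cells, at 420.5 against 169 CPM (1.29, SE 0.24, edgeR adjusted p = 0.00554). Actn1, alpha-actinin, was lower in TLI DC3, at 0.844 CPM, than in TLI DC1a, at 20.4 CPM (-4.46, edgeR adjusted p = 0.0289), and TLI DC1b, at 18.0 CPM (-4.27, edgeR adjusted p = 0.0290). Rab11a, which recycles E-cadherin to the membrane, was lower in DC2 than in DC1a in untreated cells (-1.56, edgeR adjusted p = 0.0360, and 0.0591 with the block) and in TLI cells (-1.24, edgeR adjusted p = 0.0230, and 0.0533 with the block).

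Of the catenin relatives, Ctnnd2, encoding delta-catenin, was higher in TLI DC2 at 33.6 CPM than in TLI DC1a at 0.626 CPM (log2 fold change 5.80, SE 1.45, edgeR adjusted p = 0.0344, and 0.0979 with the block). Its untreated values were 18.9 and 41.9 CPM in DC2 and at most 8.11 CPM in the other 3 subsets, without a call. In the beta-catenin destruction complex 1 of 8 genes passed once, Apc, which was higher in TLI DC2 at 66.6 CPM than in TLI DC1a at 11.8 CPM (2.43, SE 0.62, edgeR adjusted p = 0.0398). In untreated cells Apc had the opposite order, at 13.8 CPM in DC2 and 35.1 CPM in DC1a, without a call. Of 9 nuclear partners of beta-catenin none passed in edgeR, while DESeq2 called 12 of their 144 gene and comparison pairs, against 6.35% of pairs over all genes. Of 7 common target genes Myc passed once, higher in TLI DC3 at 46.9 CPM than in TLI DC1b at 6.60 CPM (2.81, SE 0.66, edgeR adjusted p = 0.0496, and 0.107 with the block). None of the 3 tested cadherins and none of the 3 tested desmosome genes passed in edgeR or DESeq2, and 14 of the 17 other classical cadherins were too low to test. Cdh5 was 7.41 and 14.2 CPM in untreated DC1b and at most 6.18 CPM in each other library, an order that 2.7% of all genes tested had.

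The genes most like Cdh1 were sought over the 23 libraries among 12818 genes with a mean of at least 5 CPM in a group. The 5 highest Pearson coefficients on the log2 CPM scale were those of Klk1b14-ps (0.827), Mansc4 (0.827), Gm44110 (0.810), Gm16548 (0.809) and Ap1m2 (0.808). Klk1b14-ps is a kallikrein pseudogene whose reads may be shared with near-identical kallikrein genes, Mansc4 encodes a membrane protein, Gm44110 and Gm16548 are long noncoding RNAs, and Ap1m2 encodes the epithelial mu subunit of the AP-1 sorting adaptor. In untreated DC1b they stood at 16.01 and 17.9 CPM, 15.8 and 21.9 CPM, 5.78 and 4.94 CPM, 9.36 and 4.80 CPM, and 8.76 and 14.7 CPM in pools 1 and 2. All 5 were at 0 in the TLI DC1a library with 183 Cdh1 counts. The likeness rested on the 2 untreated DC1b libraries, since without them the coefficients were 0.344, 0.292, -0.06, 0.121 and -0.06.

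The same search for Jup gave Gp2 (0.765), Nr6a1 (0.681), Palb2 (0.678), BC017158 (0.677) and Mlycd (0.677). Gp2 encodes a membrane glycoprotein that binds bacteria, Nr6a1 an orphan nuclear receptor, Palb2 the partner of BRCA2 and Mlycd malonyl-CoA decarboxylase. Mean Gp2 was 108 CPM in untreated and 249 CPM in TLI DC1a and 1.11 and 1.52 CPM in untreated and TLI DC3, the subset with the lowest Jup in both treatments. These coefficients describe 23 libraries that share pools and batches.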

How the data were processed

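RNA was sequenced from sorted spleen DCs of pooled mice (SMARTseq v4 cDNA, KAPA HyperPlus libraries), 8 untreated and 15 TLI libraries. Per the labels, the authors used Trimmomatic, HISAT2 and StringTie with build GRCm38, and deposited estimated counts per gene as whole numbers, not normalized. The protocol does not keep strand, so reads of overlapping genes on opposite strands cannot be told apart. Of 47729 identifiers, 47310 have a symbol in the annotation and 419 do not. Library totals were 19256447 to 36997890 counts.

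Estimated counts were scaled by TMM and genes with low counts were removed (filterByExpr), which left 19597 genes and all 5 members. edgeR 4.0.16 (R 4.3.3) fitted 8 groups and batch over 23 libraries, and 16 comparisons and 6 interactions were tested by its quasi-likelihood test at a Benjamini-Hochberg adjusted p of 0.05. The study's pairwise test, DESeq2 (1.42.0 here), was an alternative, as were other scalings, filters, fits of fewer libraries, replicate blocks and leaving out each library. Scripts were tested on simulated data. TPM used exon lengths. The design had assumed read counts, and the same test was kept for estimated counts. Pools are separate sets of mice. The main fit had no pool term, so its p-values rest on a spread between libraries estimated over all 8 groups.

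Members and lists were chosen with earlier results of these data known. Named were the 5 members, list genes past the threshold in untreated DC1b against DC1a, DC2 or DC3 or in TLI against untreated DC1b, the E-cadherin receptors, the repressors, and the 5 genes most like Cdh1 and Jup by Pearson coefficient (log2 CPM, prior count 2), with other called list genes named after their values were seen. Per the labels, a pool number marks the same mice within a treatment, so subset comparisons are paired by pool. Deviations from the group means of libraries of 1 pool correlated at 0.0801 to 0.393 in TLI pools (21 pairs) and at -0.00585 to 0.0159 in untreated pools (6 pairs of subsets, since both pools give the same value). Between treatments the numbers join different mice.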

Additional observations from a re-analysis of the deposited data

Results flagged for a closer look

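Among 14 groups of 4 libraries examined, 2 held a library far from the other 3 by Dixon's criterion, which chance meets in about 1 in 20 groups. In both groups the other 3 libraries were at or under 3 counts, where that rate cannot be relied on. Cdh1 in TLI DC1a stood at 7.22 CPM in pool 2 (183 counts) and at 0 in pools 1, 3 and 4. In that library the plasmacytoid DC markers summed to 97.0 CPM and the erythroid genes to 25583 CPM, against 129386 CPM of erythroid genes in pool 1, where Cdh1 was at 0. The part of these markers in the Cdh1 level was not tested. Jup in TLI DC3 stood at 3.62 CPM in pool 2 and at 0.147, 0.0648 and 0 CPM in pools 1, 3 and 4.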

How the results depend on the processing

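The differences of the 5 genes with an unadjusted p under 0.05, and Cdh1 in TLI against untreated DC1b, kept their direction under each alternative that gave a value. DESeq2 moved 5 log2 fold changes past the threshold: Cdh1 in untreated DC1b against DC1a (12.27) and DC2 against DC1b (-8.65), Ctnna1 in TLI DC3 against DC1b (1.06), Ctnnd1 in TLI DC3 against DC2 (2.65) and Cdh1 in the interaction of DC1b against DC1a (-12.99), so that members past the threshold numbered 2 in untreated subsets, 2 in TLI subsets and 1 in interactions. In the untreated libraries alone Cdh1 in DC1b against DC1a passed at 12.74, 1 call. Leaving out each library in turn gave 12.75 to 12.93 for that value and 0 to 1 calls, and it passed only without the TLI DC1a library of pool 2. With plain column totals mean Cdh1 in untreated DC1b was 38.4 CPM. The filter of 10 counts in every library removed Cdh1. No finite Cdh1 value could be fitted, with groups at 0, for TLI DC3 against DC1a in batch 2, nor, without the TLI DC1a library of pool 2, for that comparison, TLI against untreated DC1a and the 3 interactions with DC1a. Without the 2 untreated DC1b libraries, an alternative chosen after seeing the data, the coefficients of Gm44110 and Ap1m2 with Cdh1 were both -0.0605. By Spearman rank the 5 genes most like Cdh1 (first Sntb1, 0.802) shared 0 with those by Pearson, and those most like Jup shared 2.

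With the mouse pool as a replicate block, Cdh1 in untreated DC1b against DC1a was 12.85 (edgeR adjusted p = 0.218), and the block changed no call of the 5 genes. Of 15 list calls 7 were kept with the block and 8 lost, 3 were kept in all 23 fits that left out a library, and DESeq2 called all 15. Zeb2 in untreated DC1b against DC1a lost its call in 9 of those fits. A block of the pool number across treatments, which joins different mice, gave -4.79 for Cdh1 in TLI against untreated DC1b.

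Genes called per comparison numbered 2 to 666, and 719 to 2450 by DESeq2, 31 to 745 without a filter, 0 to 706 with 10 counts in every library, 0 to 373 without the batch term, 2 to 141 with TLI pools of batch 1 only and 0 to 90 with the pool number block. Each subset had 2 untreated pools, and counts were at or under 3 in 16 libraries for Cdh1 and 6 for Jup.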
